A study of Mus musculus with 7 samples.

Results

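The strongest distal sites of LSK cells are 742 regions of open chromatin out of 172227 autosomal regions that ATAC-Seq peaks of 7 libraries formed when overlapping peaks were merged. They were chosen by their fold enrichment, the number of tags over a peak's summit divided by the number expected from its surroundings. A region was selected when it lay over 2000 bp from every protein-coding start site and when its highest fold enrichment was in the top 2% of the peaks of each of the 7 libraries. High values are therefore what selected the sites and are given below as a description without a test. The same distance and a peak in all 7 libraries, without the demand on height, gave 82581 other distal sites, which serve as the comparison.

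LSK cells are the Lineage– c-Kit+ Sca-1+ fraction of mouse bone marrow, which holds hematopoietic stem cells and multipotent progenitors. Each library came from 50000 sorted LSK cells of adult WT C57/BL6 offspring, 8 to 12 weeks old and kept on regular diet. The 3 Ctrl libraries came from offspring of WT littermate dams bred in a similar way, and the 4 WTAkita libraries came from WT offspring of diabetic Ins2 Akita/+ dams, which carry a mutated insulin gene. Dams of both groups were fed a diet with 60 kcal% fat before breeding. The offspring of both groups lack the Akita allele, so the groups differ by the pregnancy and not by genotype. The labels give no number of animals per library, and p-values below measure the spread between these libraries. In sorted bulk cells, fewer cells with an open site and less opening per cell cannot be told apart.

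ATAC-Seq uses a transposase that inserts sequencing adapters into DNA not covered by nucleosomes, so tags pile up at promoters, enhancers and insulators. Distal open sites are mostly bound by transcription factors, and in blood progenitors PU.1, RUNX, GATA and C/EBP factors are known for such binding. Sequence present in many copies in a cell, such as mitochondrial DNA, satellite DNA at centromeres, ribosomal RNA genes and telomere repeats, can also gather tags at the few places where a reference genome holds a copy.

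The libraries held 137963 to 151552 peaks, and their depth, estimated from the peaks in units of 1000000 tags, ran from 37.6 to 53.1. The fold enrichment that marked the top 2% ran from 20.8 in WTAkita replicate 1 to 26.5 in WTAkita replicate 4. WTAkita replicates 1 and 2 and Ctrl replicate 1 had the lowest fold enrichments, with a median over the other distal sites of 6.25, 7.12 and 7.23, against 8.22 to 8.71 in the other four libraries. All 12 markers of LSK cells that were read, among them Kit, Ly6a and Cd34, had a peak within 1000 bp of a start site in all 7 libraries, with a summed fold enrichment of 128 to 141 in Ctrl and 116 to 145 in WTAkita. No library had a peak at Cd8a of T cells, Ms4a1 of B cells, Hbb-b1 of red cells, or Alb, Ins2 and Krt5 of other tissues. Peaks were present in all libraries at 2 of 4 T cell, 2 of 4 B cell, 3 of 6 granulocyte and monocyte, 4 of 5 erythroid and megakaryocyte, 2 of 2 mast cell and basophil, and 2 of 5 non-hematopoietic markers. The mean fold enrichment per marker had a median of 14.4 for erythroid and megakaryocyte, 10.6 for LSK and 9.74 for mast cell and basophil markers. It was 5 for B cell, 3.65 for T cell, 2.21 for granulocyte and monocyte and 0 for non-hematopoietic markers. Peaks at these markers therefore do not measure the purity of the LSK cells.

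**Figure D1:**
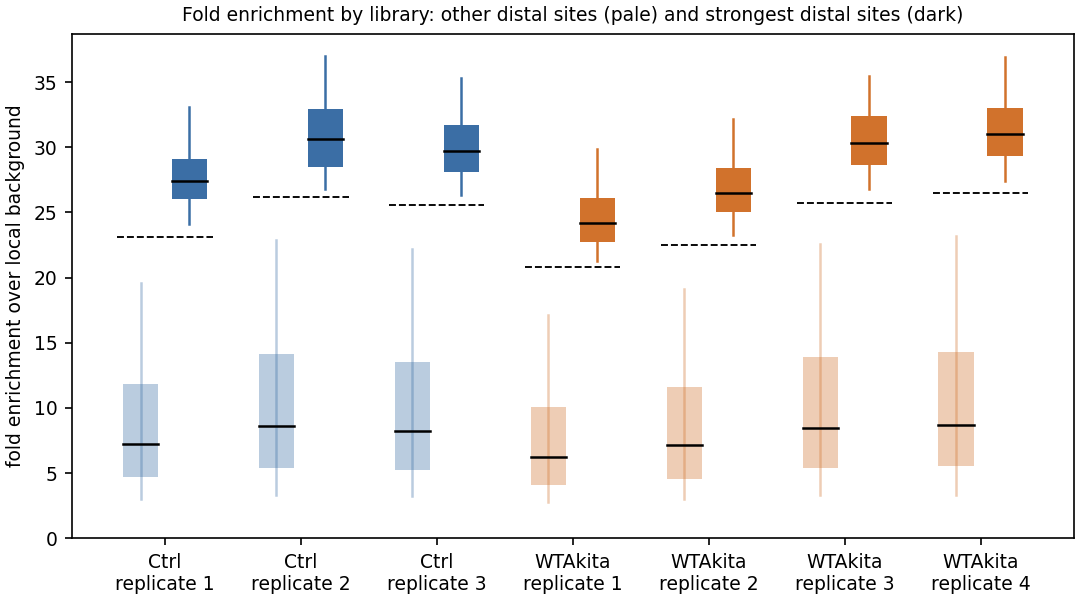
Fold enrichment over local background (y axis) in each library (x axis) for the other distal sites (pale) and the strongest distal sites (dark), with Ctrl in blue and WTAkita in orange. Boxes span the middle 50% of the sites, lines the 5th to 95th percentile, the black bar is the median, and dashed lines mark the threshold of each library, which is lowest at 20.8 in WTAkita replicate 1.

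At the top of the list stood regions whose sequence is shared with DNA of high copy number. Of the 10 strongest sites, 4 matched the mitochondrial genome and 2 matched Gm26870, a long noncoding transcript of GENCODE. In the BLAST search below, Gm26870 served as the reference for satellite DNA. The windows below show 300 bp around the summit, read from the plus strand of GRCm38 (mm10), for the 5 sites of highest mean fold enrichment, each named by its nearest protein-coding gene. Capitals mark the stretch that matched, found by BLAST at an E value of at most 1e-10.
Abcb11, chr2:69355399-69355698, mitochondrial match in capitals: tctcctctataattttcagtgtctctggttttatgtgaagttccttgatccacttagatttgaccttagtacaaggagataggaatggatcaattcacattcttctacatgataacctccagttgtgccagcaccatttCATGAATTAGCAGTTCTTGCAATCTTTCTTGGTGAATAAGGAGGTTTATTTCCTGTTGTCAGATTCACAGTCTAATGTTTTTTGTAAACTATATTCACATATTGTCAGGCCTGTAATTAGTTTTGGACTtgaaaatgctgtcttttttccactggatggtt
G6pd2, chr5:60042780-60043079, mitochondrial match in capitals: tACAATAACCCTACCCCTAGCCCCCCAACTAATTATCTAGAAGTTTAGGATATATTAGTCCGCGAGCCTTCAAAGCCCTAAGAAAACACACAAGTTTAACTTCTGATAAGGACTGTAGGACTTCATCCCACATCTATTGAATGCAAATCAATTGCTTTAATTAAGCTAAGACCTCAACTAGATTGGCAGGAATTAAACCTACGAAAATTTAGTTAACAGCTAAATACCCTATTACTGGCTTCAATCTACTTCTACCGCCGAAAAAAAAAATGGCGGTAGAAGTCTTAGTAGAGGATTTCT
2210408I21Rik, chr13:77438769-77439068, Gm26870 match in capitals: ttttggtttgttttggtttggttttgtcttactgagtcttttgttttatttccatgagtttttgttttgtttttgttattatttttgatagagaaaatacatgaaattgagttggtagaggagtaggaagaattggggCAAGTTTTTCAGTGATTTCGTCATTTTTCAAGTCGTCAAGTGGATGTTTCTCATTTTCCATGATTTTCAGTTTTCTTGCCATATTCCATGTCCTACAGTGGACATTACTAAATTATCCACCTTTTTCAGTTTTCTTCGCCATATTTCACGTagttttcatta
Gm5426, chr10:96077468-96077767, mitochondrial match in capitals: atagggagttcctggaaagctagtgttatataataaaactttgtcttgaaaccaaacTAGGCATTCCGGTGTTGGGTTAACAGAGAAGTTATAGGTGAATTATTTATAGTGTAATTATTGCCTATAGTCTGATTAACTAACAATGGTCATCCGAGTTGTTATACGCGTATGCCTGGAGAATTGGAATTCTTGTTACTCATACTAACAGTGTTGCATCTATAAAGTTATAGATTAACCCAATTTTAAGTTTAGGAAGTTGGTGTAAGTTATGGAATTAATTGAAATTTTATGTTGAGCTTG
Rab10, chr12:3109751-3110050, Gm26870 match in capitals: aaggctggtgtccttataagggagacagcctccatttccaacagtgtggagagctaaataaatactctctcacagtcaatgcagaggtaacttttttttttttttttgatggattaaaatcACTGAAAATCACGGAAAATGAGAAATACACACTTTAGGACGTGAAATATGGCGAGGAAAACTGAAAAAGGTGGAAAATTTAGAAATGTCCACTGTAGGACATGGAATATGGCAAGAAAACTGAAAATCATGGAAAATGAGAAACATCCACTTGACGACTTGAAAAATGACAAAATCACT
The match at G6pd2 covered 300 bases at 98% identity, and the match at Abcb11 covered 129 bases at 100%.

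The strongest site of all lay in intergenic sequence 12799 bp from a start of Abcb11, the bile salt export pump, and was 376 bp wide. Its fold enrichment was 61.5, 61.6 and 62.3 in Ctrl replicates 1 to 3 and 60.3, 60.5, 62.3 and 62.3 in WTAkita replicates 1 to 4. It was the highest of the 105631 regions with a peak in every library in each of the 7 libraries, the values differed by little, and the groups overlapped. Its summit held a median of 1531 tags, and 96.1% of all tags within 10 kb lay over that summit. The fold enrichment has a ceiling of 66.7, because the local background is taken from the tags of the surrounding 10 kb and counts the summit's own tags, so values near 62 are near the limit of the scale.

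The next sites repeated this form. The site near G6pd2, a retrogene of glucose-6-phosphate dehydrogenase 1765606 bp away, had a fold enrichment of 49.2, 50 and 52.1 in Ctrl and 48.6, 48.6, 49.7 and 49.4 in WTAkita. The site near Rab10, a gene of a small GTPase of vesicle transport, had 46.5, 46.6 and 44.8 in Ctrl and 46.6, 46.3, 44.1 and 45.9 in WTAkita. Groups overlapped at both. Ranks 8 and 9 belonged to sites with no match, near Cdh20, a cadherin gene, with 45.4, 46.2 and 44.1 in Ctrl and 37.9, 44.5, 45.7 and 41.8 in WTAkita, and in an intron of Il31ra, a cytokine receptor gene, with 44.1, 44.5 and 41 in Ctrl and 40.4, 44.4, 43 and 44.3 in WTAkita. Their windows shared 22.6% and 45.6% of their words with other places. The mitochondrial matches numbered 7 among the 742 sites (0.943%) and 13 among the 82581 other distal sites (0.0157%). Beside Abcb11, G6pd2 and Gm5426 they lay near Nxph1, Galc, Tyrp1 and Fhl4, with identities from 87.6% over 178 bases near Fhl4 to 100% over 218 bases near Galc. The site near Galc had the highest summit of the 742, a median of 4760 tags.

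Other repeated sequence was found further down the ranking. At least 6 copies of the telomere unit TTAGGG, counted on both strands, stood in 8 of the 742 windows (1.08%) and in 80 of the others (0.0969%). Matches to the 18S ribosomal RNA gene CT010467.1 stood in 2 windows, near Rtl10 over 139 bases at 100% and near Cd209a over 169 bases at 72.2%, against 6 of the others. Gm26870 matched 3 windows, the third near Rpusd4 at 95.6% over 298 bases, against 8 of the others. Windows in which over 50% of the 31-base words occur elsewhere in the assembly numbered 42 (5.66%), against 2867 of the others (3.47%). Any of these features held for 49 of the 742 sites (6.60%) and 2943 others (3.56%), and for 11 of the 20 strongest sites but 16 of the 100 strongest. The features were chosen after the strongest sites had been seen, and the windows of 2 further examples are shown for that reason.
Dpy19l1, chr9:24541892-24542191, TTCGTTGGA in capitals: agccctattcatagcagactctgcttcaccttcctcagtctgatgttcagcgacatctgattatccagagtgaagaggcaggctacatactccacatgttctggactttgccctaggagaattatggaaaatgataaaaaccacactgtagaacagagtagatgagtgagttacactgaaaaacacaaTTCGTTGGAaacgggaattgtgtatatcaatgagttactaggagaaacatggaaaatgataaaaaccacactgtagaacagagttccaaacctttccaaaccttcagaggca
Rtl10, chr16:18533061-18533360, 18S rRNA match in capitals: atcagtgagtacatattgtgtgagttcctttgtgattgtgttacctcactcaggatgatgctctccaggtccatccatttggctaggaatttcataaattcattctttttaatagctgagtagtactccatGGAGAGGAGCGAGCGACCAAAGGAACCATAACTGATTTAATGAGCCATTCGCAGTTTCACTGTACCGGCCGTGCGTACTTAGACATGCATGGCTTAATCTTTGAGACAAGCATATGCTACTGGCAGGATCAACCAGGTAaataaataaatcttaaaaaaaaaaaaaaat
TTCGTTGGA is part of the CENP-B box of centromeric minor satellite DNA. It stood in 3 of the 742 windows (0.404%) and in 31 of the others (0.0375%), and windows near Dpy19l1 and Chl1, the sixth and seventh strongest sites, were among the 3. These 3 sites are not counted in the 49. For satellite DNA the only sequence compared by BLAST was Gm26870. No satellite consensus and no large-subunit ribosomal RNA gene was compared, so the 49 hold only what the named references and the word count could find.

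**Figure D2:**
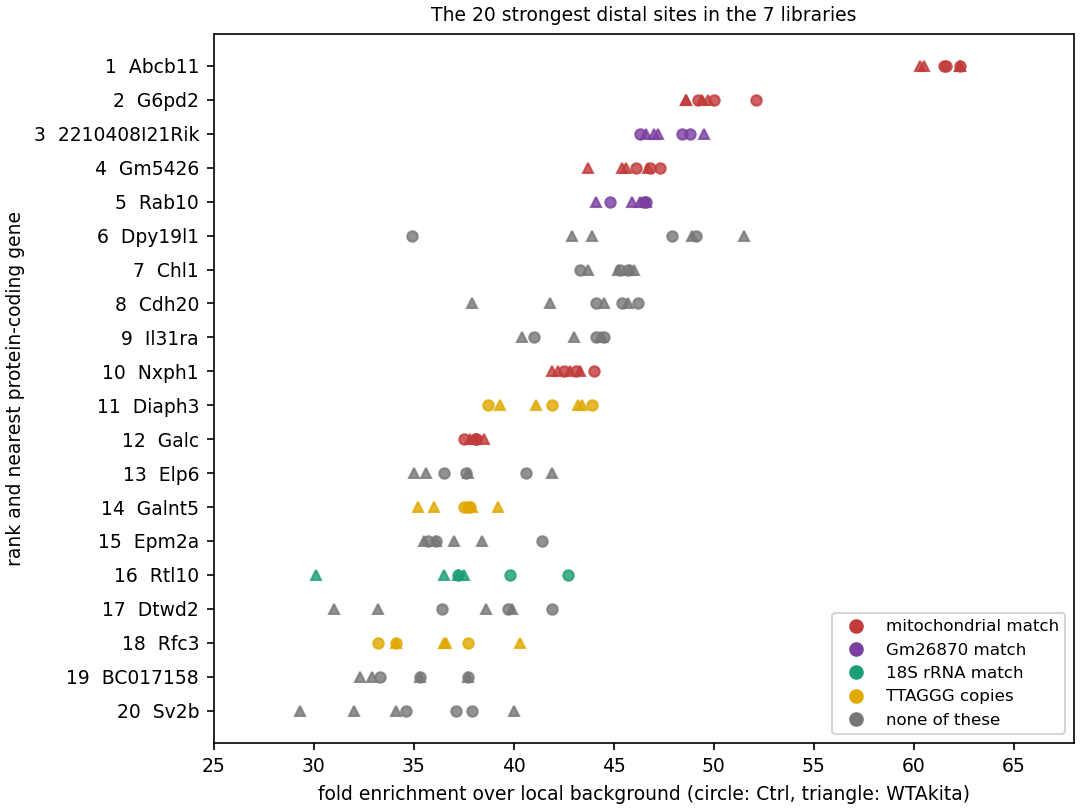
Fold enrichment (x axis) of the 20 strongest sites, ordered by mean log2 fold enrichment and named by rank and nearest protein-coding gene (y axis), with a circle for each Ctrl and a triangle for each WTAkita library and colors for the sequence class. The mitochondrial match near Abcb11 stands apart at 60.3 to 62.3, and the libraries of both groups intermix in most rows.

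Sites of these classes did not scale with depth in the same way. Over the 7 mitochondrial matches, the median summit held 1252, 1336 and 1291 tags in Ctrl and 1166, 1241, 1261 and 1305 in WTAkita, a range of 1.15-fold across libraries whose tag totals ranged 1.41-fold. Over the 3 Gm26870 matches it held 3007, 2552 and 1822 tags in Ctrl and 3228, 3294, 2028 and 2345 in WTAkita. The 3 highest of these values belonged to Ctrl replicate 1 and WTAkita replicates 1 and 2, the libraries of lowest fold enrichment elsewhere. Over the 693 sites in none of the classes the order was the other way, once summits were divided by the library's depth. Per 1000000 tags, the median summit of these sites held 3.57 tags in WTAkita replicate 1, 4.06 in WTAkita replicate 2 and 4.46 in Ctrl replicate 1, against 5.35 to 5.67 in the other four libraries. The largest class, the 42 windows with over 50% of words elsewhere, had the order of the 693. It held 3.8, 4.11 and 4.76 in the same 3 libraries and 5.69 to 5.9 in the others. On the same scale the Gm26870 matches held 65.4, 62 and 62.9 in those 3 libraries and 48.4 to 52.4 in the others. The mitochondrial matches held 23.6, 23.4 and 26.2 there and 25.7 to 34.3 in the others, a range of 1.47-fold over all libraries. Windows with TTAGGG copies held 7.9, 7.93 and 8.44 there and 8.06 to 9.11 in the others. The 2 matches to 18S ribosomal RNA held 2.98, 3.54 and 3.43 there and 3.41 to 4.17 in the others. The 3 windows with TTCGTTGGA, which are among the 693, held 7.92, 8.82 and 7.03 there and 4.87 to 5.81 in the others, and without them the 690 remaining sites held 3.57, 4.06 and 4.46 against 5.34 to 5.69. What part copy number or library enrichment had in these values was not tested.

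The tallest summits and the strongest enrichments were largely different sites. When summit pileup replaced fold enrichment in the rule, 316 sites passed, and 37 of them were among the 742, which is 11.7% of the first set and 4.99% of the second. The 316 sites lay in a denser neighbourhood, with a median local background of 28.2 tags against 6.68 for the 742 sites and 4.58 for the other distal sites. Among the 742 the median summit held 218 tags, with a middle 50% of 173 to 291, and among the other distal sites it held 51.

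**Figure D3:**
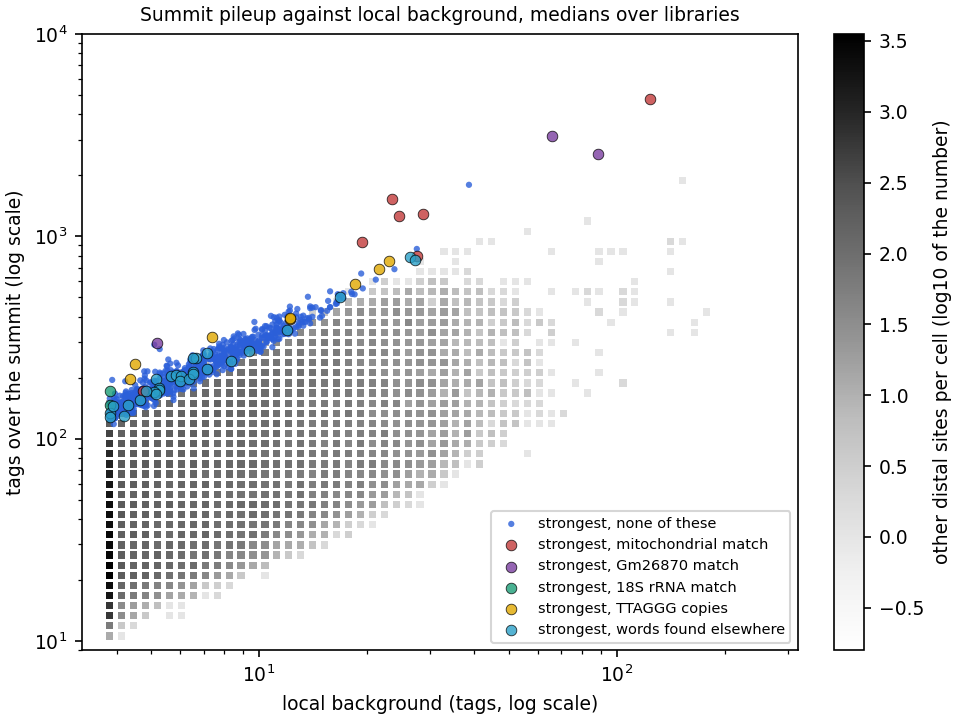
Tags over the summit (y axis, log scale) against the local background (x axis, log scale), both as medians over the 7 libraries, for the strongest distal sites (colored by sequence class) and the other distal sites (grey squares, shaded by their number). The strongest sites form the upper edge of the cloud because fold enrichment selected them, and the site near Galc stands highest at 4760 tags; 7 other distal sites fall outside the axes.

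Isolation was the property most closely tied to the rule. A median of 50.3% of the tags within 10 kb lay over the summit of a strongest site, with a range of 41.0% to 96.1%, against 15.3% for other distal sites. This share could be given for 738 of the 742 and 54388 of the others, where the background came from the 10 kb window. It restates the fold enrichment and is no separate evidence. The summit itself was placed more evenly, within a median range of 15 bp over the 7 libraries against 32 bp, with more tags behind each value. The SD of log2 fold enrichment within groups had a median of 0.0747 against 0.190. The rule asked for a high value in each of the 7 libraries, on a scale with a ceiling of 66.7. This SD is therefore tied to the selection and is no separate evidence.

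Width was not used by the rule, but it was not compared at like summit pileup, whose median was 218 tags against 51. The part of pileup in the widths was not tested. The merged regions of the strongest sites had a median width of 713 bp, with a middle 50% of 613 to 828 bp, and the other distal sites had 574 bp and 437 to 780 bp. The range was narrower at both ends. The widest of the 742 measured 1303 bp and lay in an intron of a noncoding gene 24042 bp from Akr1b3, the aldose reductase gene, while other distal sites ran from 263 to 4692 bp. The second widest, of 1274 bp, lay 9900 bp from Trav4-2 in the T cell receptor alpha locus, and 1227 bp were measured at 2 sites, in an untranslated exon of Sf3b5, a splicing factor gene, and 9206 bp from Trav4d-2 of the same receptor locus.

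The narrowest sites included 2 matches to sequence of high copy number. They measured 337 bp near Gtpbp4, 376 bp near Abcb11 and 384 bp near Rtl10. The site near Gtpbp4, a gene of ribosome assembly, had a fold enrichment of 27.3, 30.4 and 27.9 in Ctrl and 25.6, 23.9, 29 and 26.8 in WTAkita, and 50.3% of its window was repeat-masked. Groups overlapped there. Without the 49 sites of the classes above, the median width was 716 bp, the share of tags 50.1% and the GC content 49.7%.

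**Figure D4:**
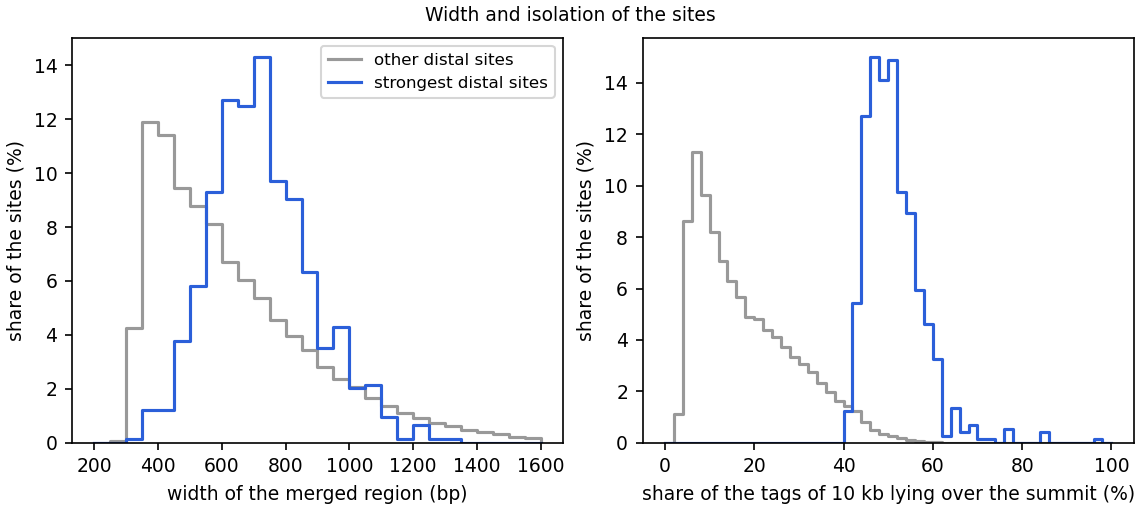
Distribution over the strongest (blue) and other (grey) distal sites of the width of the merged region (left, bp) and of the share of the tags of 10 kb that lies over the summit (right, %), each as a share of the sites (y axes). Strongest sites cluster around 713 bp and 50.3%, and 595 other distal sites of 1600 bp or more are not drawn.

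Peak width was compared between groups as the median over the 742 sites of the width of each library's strongest peak. It was 616, 603 and 622 bp in Ctrl and 598, 596, 604 and 603 bp in WTAkita, 614 ± 9.66 bp (SD, n = 3) against 600 ± 3.85 bp (SD, n = 4). The difference of 13 bp had p = 0.171 in an exact permutation test, made two-sided by doubling the smaller tail. With that doubling, 0.0571 is the smallest p that 3 against 4 libraries allow. Other distal sites had 459 ± 4.51 bp in Ctrl and 450 ± 9.07 bp in WTAkita, with p = 0.286 in the exact permutation test. Relative to them, the 742 sites were wider by a ratio of 1.34 ± 0.0306 in Ctrl and 1.33 ± 0.0189 in WTAkita, a difference well inside the spread of the libraries.

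The 742 sites lay farther from genes than other distal sites. The median distance to a protein-coding start was 29.2 kb against 24.3 kb, 17.0% lay within 10 kb against 24.6%, and 18.9% lay over 100 kb away against 14.8%. Intergenic sequence held 337 of them (45.4% against 41.1%), introns of protein-coding genes 297 (40.0% against 45.4%), introns of noncoding genes 45, exons of noncoding transcripts 30, untranslated exons 17 and coding exons 16. Among the last was a site in an exon of Ncam2, a neural adhesion gene, at chr16:81437226-81438153. Its fold enrichment was 34.3, 35.6 and 35.9 in Ctrl against 32, 32.5, 35.9 and 37.1 in WTAkita.

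Chromosome 13 held 63 of the sites (8.49%, against 4.85% of other distal sites) and chromosome 1 held 64 (8.63% against 6.91%), while chromosome 5 held 31 (4.18% against 6.62%). These shares are given without a test.

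Although distal to protein-coding genes, 94 of the sites (12.7%) lay within 2000 bp of the start of a noncoding gene, against 8.53% of the others. Long noncoding RNA genes were nearest for 28 of them (3.77% against 4.11%), pseudogenes for 31 (4.18% against 1.99%), small RNA genes for 18 (2.43% against 1.28%), unclassified genes for 11, and antibody or T cell receptor V segments for 6 (0.809% against 0.302%). The V segments were Ighv1-52, Ighv1-53, Ighv1-58, Ighv1-61 and Ighv1-74 of the antibody heavy chain on chromosome 12 and B230359F08Rik on chromosome 14. Ighv segments are joined and transcribed in B cells, and they resemble each other in sequence. The 4 B cell markers had a summed fold enrichment of 25.9 to 29.5 in Ctrl and 24.3 to 28.9 in WTAkita, with no peak at Ms4a1, and the part of B cells in these sites was not tested.

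The peak over Ighv1-61 had a fold enrichment of 28, 32 and 30.4 in Ctrl and 27.8, 26.4, 29.4 and 31.4 in WTAkita. In its window 88.5% of the 31-base words occurred elsewhere in the assembly, and the share was 98.5% at Ighv1-52 and 14.1% at Ighv1-58. Another segment, Ighv1-84, fell just outside the threshold. The Pirb and Pira2 genes on chromosome 7, paired receptors of the immunoglobulin family, likewise were nearest to 3 sites, in whose windows 91.5% to 100% of the words occurred elsewhere. The sources do not say how tags were divided among near-identical copies, so values at single copies are uncertain.

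The 742 sites had 700 nearest protein-coding genes, and 37 genes were nearest to 2 or more sites. Zfp386, a zinc finger gene beside the antibody heavy chain locus, was nearest to the most, 5, which are the Ighv1 sites above. Pde4d, a phosphodiesterase gene, held 3 of them in its introns and Maf, a transcription factor gene, was nearest to 3. Of the 20698 protein-coding genes, 776 (3.75%) were nearest to or contained a site. Of 192 genes in 8 lists of blood, inflammation, metabolism and DNA methylation genes, 9 (4.69%) did, a share close to that of all genes. Under the rule on summit pileup it was 8 of the 192 (4.17%) and 1.47% of all genes.

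Among 36 stem and progenitor transcription factors, Foxo1 and Etv6 were nearest to a site. Foxo1 encodes a forkhead factor under insulin control, and its site lay 286422 bp away with a fold enrichment of 27.8, 29 and 31.5 in Ctrl and 27.2, 27.6, 31.8 and 31 in WTAkita. Etv6 encodes an ETS repressor, and its site had 26.7, 35 and 28.9 in Ctrl and 22.2, 25.3, 32.1 and 32.5 in WTAkita. The libraries of each group spread widely at Etv6 and the groups overlapped at both.

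Ptprc, which encodes CD45, was the only one of 28 autosomal genes of receptors and surface proteins with a site, in its intron. Fold enrichment there was 28.2, 26.7 and 29 in Ctrl libraries and 21.1, 26.3, 27.4 and 27.1 in WTAkita libraries, of which replicate 1 stood below the others. Of 20 myeloid genes only Klf4, a factor of monocytes, had a site, 90842 bp away in an intron of a noncoding gene, with 26.8, 29.1 and 28.2 in Ctrl and 21.2, 27, 30.3 and 29.6 in WTAkita. Of 20 lymphoid genes only Lef1, a Wnt pathway factor, had a site, with 27.7, 30 and 29.6 in Ctrl and 24.8, 30.3, 31.5 and 33.3 in WTAkita. None of 16 erythroid and megakaryocyte genes and none of 10 DNA methylation genes had a site.

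The list of 32 cytokine, NF-kB and inflammasome genes had 4 sites at 3 genes. The site near Tlr4, the receptor of bacterial lipopolysaccharide, lay 596351 bp away and had a fold enrichment of 29.7, 28.5 and 30.6 in Ctrl and 28.6, 30.5, 30.6 and 32.3 in WTAkita. The site in an intron of Nlrc4, an inflammasome sensor, had 28.8, 29.4 and 27.9 in Ctrl and 24.9, 26.3, 28.2 and 34 in WTAkita. WTAkita libraries lay on either side of Ctrl at Nlrc4.

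Tnfaip3, which encodes the NF-kB inhibitor A20, had 2 sites, 27934 and 78399 bp from a start. The nearer had 25.1, 29.4 and 30.9 in Ctrl and 26.1, 28.9, 28 and 30 in WTAkita, and the farther had 24.9, 29.4 and 29.9 in Ctrl and 23.5, 24, 27.8 and 29.8 in WTAkita. Of 30 oxidative stress and metabolism genes only Slc2a1, which encodes the glucose transporter GLUT1, had a site, over the start of the noncoding gene Gm12866, with 32.2, 34.2 and 32 in Ctrl and 23.7, 29.8, 35.7 and 36.9 in WTAkita. The groups overlapped at each of these sites, and none of the 10 sites of the lists was among those with an unadjusted p under 0.05 below.

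The first site with none of its 31-base words elsewhere in the assembly had rank 15. It lay near Epm2a, which encodes laforin, a phosphatase of glycogen, and had a fold enrichment of 36.1, 41.4 and 35.7 in Ctrl and 35.5, 36.1, 38.4 and 37 in WTAkita. The site near Nppc, a natriuretic peptide gene, ranked 21 and had 31.5, 39.1 and 36.2 in Ctrl and 29.2, 30.9, 39.8 and 38.2 in WTAkita. None of the 31-base words of their windows occurred elsewhere in the assembly, and the groups overlapped at both. These sites were picked after their values were seen.

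Base composition differed little. The 300-bp windows of the 742 sites had a median GC content of 49.7% against 49.0%, a CpG observed over expected ratio of 0.238 against 0.214, and a repeat-masked share of 7.67% against 9.67%. The tail was longer, since 60 sites (8.09%) had a CpG ratio above 0.6 against 4.1% of the others, and 23 of these 60 lay within 2000 bp of a noncoding start.

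The windows were searched on both strands for short letters of 15 factors. The GC box GGGCGG, bound by SP and KLF factors, stood in 116 windows (15.6%) against 9.76% of the other distal windows and 9.81% of all 83323. Of these 116 windows, 33 had a CpG ratio above 0.6. The YY1 letters AANATGGCG stood in 7 (0.943% against 0.506%). Among them were the windows near G6pd2, 2210408I21Rik and Rab10 shown above, which matched the mitochondrial genome or Gm26870. PU.1 letters GAGGAAGT stood in 16.2% against 11.2%, NF-Y letters ATTGGC in 12.5% against 8.82%, the CTCF motif in 11.2% against 7.90%, and RUNX letters TGTGGTTT in 8.22% against 6.45%. ETS letters CCGGAAGT and NRF1 letters GCATGCGC each stood in 7 windows (0.943%), against 0.671% and 0.66% of the others.

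Letters of some other factors stood in a like or smaller share of the windows. GATA letters AGATAAG stood in 2.56% of the windows against 4.43%, C/EBP letters TTGCNNAA in 10.4% against 12.9%, and AP-1 letters TGANTCA in 10.6% against 12.1%. The E-box CAGCTG stood in 20.1% against 20.5%, MEIS letters TGACAGC in 6.87% against 6.5%, and IRF letters GAANNGAAA in 10.1% against 10.7%. ZBTB33 letters CTCGCGAG stood in 0% against 0.0436%. A match is a description of the letters and not of a bound factor. The strongest site with a GC box was the mitochondrial match near Nxph1, a neurexophilin gene.
Nxph1, chr6:9889839-9890138, GC box in capitals: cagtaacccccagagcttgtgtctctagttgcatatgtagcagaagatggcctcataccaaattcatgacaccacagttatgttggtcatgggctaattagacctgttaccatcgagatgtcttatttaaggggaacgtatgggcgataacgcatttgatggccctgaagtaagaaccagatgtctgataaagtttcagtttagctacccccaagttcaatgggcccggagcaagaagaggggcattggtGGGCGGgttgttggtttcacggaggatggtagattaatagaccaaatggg

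The difference between WTAkita and Ctrl was tested with limma on quantile-normalized log2 fold enrichment across all 105631 regions with a peak in all 7 libraries. The rule used the same fold enrichments, in both groups alike: a site had to pass the threshold in every library, so a strongest site could not be low in either group, and the counts below are a description. No region and no strongest site passed an adjusted p of 0.05 (0% of all regions called), and the median difference was 0.004 over the 742 sites and 0.006 over all regions on the log2 scale. At an unadjusted p under 0.05, 3 of the 742 (0.404%) were higher in WTAkita, against a background of 1.76% of all regions, and 13 (1.75%) were lower, against 2.10%. After normalization, all 4 WTAkita libraries lay above all 3 Ctrl libraries at 11 sites (1.48%, background 2.46%) and below them at 23 (3.10%, background 2.26%). The background is printed beside these shares and nothing about the sites is read from it. The lower count fell to 4 without Ctrl replicate 3, to 7 without WTAkita replicate 1 and to 8 without WTAkita replicate 2, while the higher count was 9 without Ctrl replicate 1, 4 without WTAkita replicate 1, 1 without WTAkita replicate 2 and 0 without Ctrl replicate 2 or 3. In simulated data of the same size, 18 of 100 regions changed by 0.58 and 66 of 100 changed by 1 on the log2 scale were called. The changed regions were drawn from all 105631, with independent noise of each region's own SD, and 2 unchanged regions were called. The SD within groups had a median of 0.0747 at the 742 sites against 0.190 at other distal sites, so these rates do not describe the 742.

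The lowest statistic belonged to a site in an intron of Evi5l, a gene of a RAB GTPase-activating protein, at chr8:4193073-4193931. Its normalized log2 fold enrichment was 4.92, 4.91 and 5.02 in Ctrl against 4.64, 4.71, 4.72 and 4.76 in WTAkita. On that scale the groups did not overlap. The difference was -0.24 (SE 0.06), with an unadjusted p = 0.00132 and an adjusted p = 1 from limma. Its window is shown because it had the lowest statistic of the 742, and the letters of CTCF and the GC box overlap in it.
Evi5l, chr8:4193238-4193537, CTCF and GC box in capitals: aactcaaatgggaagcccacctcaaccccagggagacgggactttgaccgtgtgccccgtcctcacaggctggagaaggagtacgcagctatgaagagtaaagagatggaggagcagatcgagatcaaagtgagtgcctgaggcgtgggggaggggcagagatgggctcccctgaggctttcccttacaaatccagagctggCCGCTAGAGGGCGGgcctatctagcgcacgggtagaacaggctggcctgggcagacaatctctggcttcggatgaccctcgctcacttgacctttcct

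A site in an intron of Efcab5 followed, with 5.12, 5.05 and 5.11 in Ctrl and 4.69, 4.86, 4.94 and 4.99 in WTAkita, a difference of -0.22 (SE 0.07) with unadjusted p = 0.00694 in limma. Differences were -0.17 at Rtl10, the 18S rRNA match in an intron of Gnb1l, -0.15 in an intron of Txnrd2, the mitochondrial thioredoxin reductase, and -0.17 in an intron of Itga1, an integrin that binds collagen, whose nearest start belongs to Itga2. After normalization, groups did not overlap at Evi5l or at any of these 4 sites. On that scale WTAkita replicate 1 had the lowest value at each but Txnrd2, where replicate 2 had it. Before normalization the fold enrichments of the groups overlapped at each of these sites. At Evi5l they were 28.8 to 33.8 in Ctrl and 21.2 to 29.5 in WTAkita.

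The highest statistic belonged to an intergenic site 360478 bp from Ankrd50, at chr3:38094127-38095079. Its normalized log2 fold enrichment was 4.81, 4.66 and 4.66 in Ctrl against 4.95, 4.78, 4.85 and 4.93 in WTAkita, so that 1 WTAkita library lay below the highest Ctrl library. The difference was 0.17 (SE 0.07), with an unadjusted p = 0.0263 and an adjusted p = 1 from limma. None of the 15 motifs stood in its window.
Ankrd50, chr3:38094332-38094631: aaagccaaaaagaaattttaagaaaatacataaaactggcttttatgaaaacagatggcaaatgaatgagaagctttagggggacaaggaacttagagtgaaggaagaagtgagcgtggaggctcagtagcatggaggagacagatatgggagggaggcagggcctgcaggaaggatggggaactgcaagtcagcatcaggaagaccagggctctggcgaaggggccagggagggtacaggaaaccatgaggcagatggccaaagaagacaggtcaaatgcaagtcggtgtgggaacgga

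The next highest sites lay in introns of Gulp1, an adaptor of cell engulfment, and Rassf5, a RAS effector of lymphocyte adhesion, each with a difference of 0.14, and near Abcc2, an organic anion transporter (0.13), and Col6a1, a collagen gene (0.15). The unadjusted p of the last pair was 0.0533 and 0.0562 in limma, so only 3 sites were higher at 0.05.

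**Figure D5:**
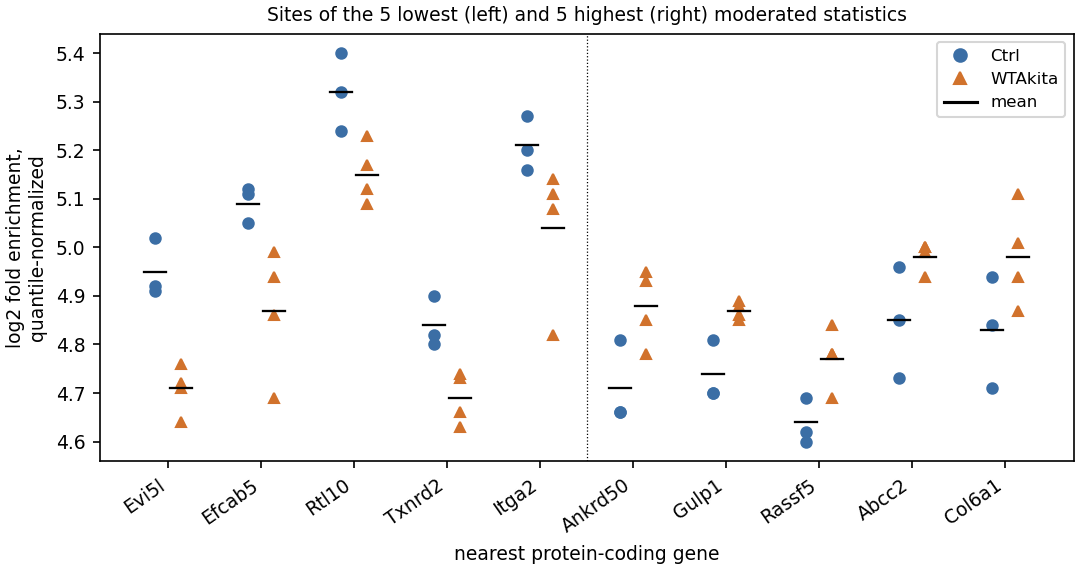
Quantile-normalized log2 fold enrichment (y axis) of the sites with the 5 lowest (left of the dotted line) and 5 highest (right) moderated statistics of WTAkita against Ctrl, named by nearest protein-coding gene (x axis), with a point for each library and a bar for the group mean. At Evi5l the 4 WTAkita libraries lie at 4.64 to 4.76 and the 3 Ctrl libraries at 4.91 to 5.02, with an adjusted p of 1.

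Before normalization the median fold enrichment of the 742 sites was 27.4, 30.6 and 29.7 in Ctrl against 24.2, 26.5, 30.3 and 31 in WTAkita, 29.2 ± 1.66 (SD, n = 3) against 28 ± 3.21 (SD, n = 4). Divided by the median of the other distal sites of the same library, it was 3.66 ± 0.116 in Ctrl and 3.68 ± 0.145 in WTAkita. These medians come from the values that selected the sites, move with each library's threshold and are given without a test.

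Some sites were near the edge. The last sites inside lay near Nat9, Olfr9 and Tnfrsf23, with a lowest percentile over libraries of 98.001, 98.003 and 98.018. The first outside lay near Cdc42se2, at Ighv1-84 and near Syce1l, with 97.999, 97.994 and 97.992. The site near Nat9 was limited by WTAkita replicate 2, where its fold enrichment was 22.5, and the site near Cdc42se2 by Ctrl replicate 3, where it was 25.6. The edge of the set is therefore drawn by single libraries, and leaving out WTAkita replicate 1 raised the number of sites from 742 to 912.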

How the data were processed

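ATAC-Seq peaks of 3 Ctrl and 4 WTAkita libraries were used. Per the authors' methods and the submitters' processing notes, adapters were removed by Trim Galore (0.4.2, cutadapt 1.9.1), Bowtie2 (2.3.4.1) placed the reads on mm10, PCR copies were dropped, and MACS2 (2.1.4 in those notes) was run on every library by itself. No filter on reads that map to several places is given in the sources used here. The deposited fold enrichment is the ratio of summit pileup plus 1 to local background plus 1, unscaled between libraries. The deposited −log10 p-value tests the summit against that background, and the deposited score and −log10 q-value were not used further.

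Lines sharing start and end counted as 1 peak. Peaks of the 19 autosomes were merged where they overlapped by at least 1 bp. Start sites were those of protein-coding transcripts of GENCODE vM21, and distances ran from a region's edge. Summit pileup and background were solved from the fold and the p-value, and tags were estimated from the commonest background. At these depths the median summit of the strongest sites held 177 to 278 tags. Windows of 300 bp around the median summit came from GRCm38 and were compared with the mitochondrial genome and 2 GENCODE transcripts (BLAST 2.17.0), and by 31-base words with all chromosomes. The contrast used limma (3.58.1, R 4.3.3), with a trend of variance on level, on quantile-normalized log2 fold enrichment, with Benjamini-Hochberg adjustment over all 105631 regions, and the fit was tested on simulated data. Single values per library were compared by exact permutation tests. No pair of libraries was an identical deposit, since summit pileups of the 21 pairs differed by a mean chi-square of 1.08 to 1.80 where sampling noise gives 1. Values this near to sampling noise cannot tell whether libraries shared material. Python 3.11.15, numpy 2.4.6, pandas 2.3.3, scipy 1.17.1 and matplotlib 3.10.9 were used.

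Sites named are the 10 of highest mean log2 fold enrichment, the 5 of highest and lowest statistic, those at genes of 8 lists, the 3 widest and narrowest, and the 3 on either side of the threshold. The sites near Galc, Ncam2, Epm2a, Nppc, Pirb, Pira2, Trav4d-2 and the V segments, and other matches to repeated sequence, were named after their values were seen. The members and lists were chosen with earlier results of these data known. Alternatives covered the merging, the threshold, the start sites, the normalization, the value of a peak, low regions, a replicate block and each library left out. The sequence of 1 site is not reported here.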

Additional observations from a re-analysis of the deposited data

Results flagged for a closer look

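Within the 4 WTAkita libraries, 42 values were examined for a library far from the rest, and such a gap arises by chance in about 1 of 20 groups. The site near Rtl10, the 18S rRNA match on chromosome 16, had a log2 fold enrichment before normalization of 4.91 in WTAkita replicate 1. The other 3 libraries had 5.19 to 5.23, so that the gap took 0.881 of the whole range. On the same scale the site in an intron of Ptprc had 4.40 in WTAkita replicate 1 against 4.72 to 4.78, with a gap of 0.847 of the range. After normalization, WTAkita replicates 1 to 4 had 5.09, 5.23, 5.17 and 5.12 near Rtl10 and 4.63, 4.82, 4.68 and 4.63 at Ptprc. WTAkita replicate 1 also had the lowest median fold enrichment over the 742 sites, 24.2.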

How the results depend on the processing

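The number of sites was 742, and 662 to 912 when peaks up to 100 bp apart were joined (742), with peaks of −log10 p of at least 5 (662) and with each library left out (765 to 912). It was 622 with the starts of every transcript, 322 at the top 1%, 2414 at the top 5% and 316 with summit pileup.

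No site passed an adjusted p of 0.05 in limma under any of the 17 alternatives, although 6 of all 105631 regions did with the replicate block, 7 with quantile-normalized pileup and 7 without WTAkita replicate 4. Unadjusted, 3 sites were higher and 13 lower in the reported fit. Higher and lower sites, with the shares of all regions after them, numbered 0 and 1 without trend (2.06% and 2.16%), 0 and 6 with median centring (1.83% and 2.01%), 9 and 17 with the library's median fold enrichment as covariate (2.5% and 2.47%), 0 and 2 without normalization (0.398% and 1.28%), 6 and 15 over regions above the median (1.35% and 2%), 0 and 1 with summit pileup scaled by tag total (0.116% and 0.721%), and 14 and 13 with quantile-normalized pileup (2.27% and 1.89%). Leaving out each library gave 0 to 9 higher and 4 to 15 lower. The higher count was 9 without Ctrl replicate 1, 0 without Ctrl replicate 2 or 3, and 1 without WTAkita replicate 2. The lower count was 4 without Ctrl replicate 3, 7 without WTAkita replicate 1 and 8 without WTAkita replicate 2. Without the 49 repeated-sequence sites, an alternative chosen after seeing the data, it was 3 and 11.

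The median difference was 0.004, -0.061 without normalization (-0.058 over all regions) and -0.138 with pileup scaled by tag total (-0.119 over all regions). With pileup scaled by tag total the differences near Ankrd50 (-0.01), Gulp1 (-0.06) and Abcc2 (0.00) changed sign, and with quantile-normalized pileup that at Txnrd2 (0.01) did. The other 156 of 160 values of the 10 named differences kept their direction. The cause was not tested.

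With the replicate block, 8 sites (1.08%) were higher and 24 (3.23%) lower, against 2.3% and 3.9% of all regions, none with adjusted p under 0.05. The deviations of libraries with equal numbers had correlations of 0.209, 0.0257 and 0.0633, and those with unequal numbers -0.179 to 0.1. These values cannot tell whether libraries of equal number were processed together. The numbers were read as names because the study names no pairing.

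The median width of the sites was 682 bp at the top 1%, 752 bp at the top 5% and 701 to 718 bp with each library left out, and that of all distal regions found in any library was 427 bp. The share of tags over the summit was 44.8% at the top 5% and 9.93% over all those regions, whose CpG ratio was 0.198. GC content over whole regions was 46.8%.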
